A study of Mus musculus with 8 samples.

Results

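Reads were followed here on the genes of the oxidative phosphorylation system, in wild-type (WT) and cancer organoid cells that had been cultured alone or together. A gene was included when its row in the read count table was placed on the mitochondrial chromosome (chrM) or when its symbol began with the names of the nuclear subunits (Nduf, Sdha to Sdhd, Uqcr, Cox4 to Cox8 and Atp5), without Ndufa4. The rule used names only and no measured value. It gave 118 of 13420 genes, namely 13 chrM protein-coding genes, 2 chrM rRNAs, 18 chrM tRNAs and 85 nuclear genes, of which 35 belong to complex I, 4 to complex II, 8 to complex III, 13 to complex IV, 15 to complex V and 7 are complex I assembly factors. The other 3 (Cox7a2l, Atp5s and Atp5sl) are a supercomplex factor and 2 relatives that are not subunits. Enough reads for a test were found for 95 of them (12 chrM protein-coding genes, both rRNAs and 81 nuclear genes), and 23 fell below the filter. These were the 18 tRNAs, mtNd6, Cox6a2, Cox6b2, Cox7a1 and Ndufaf7.

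Murine small intestinal organoids were grown as pure cultures or mixed at 2 parts WT to 1 part cancer cells. WT organoids carried mTmG, a membrane-bound tdTomato reporter, on strain C57BL/6. Cancer organoids carried, among other alleles, Villin-CreERT2, Apc fl/fl and Tr53 fl/R172H (spelled as in the labels) on strain C57BL/6 (F6) and expressed Dendra2, so that reporter, line and cancer genotype always differed together and cannot be told apart. The Villin promoter directs the recombinase to intestinal epithelium. After 3 days of mixing, live single cells were sorted by colour and their RNA was sequenced by CEL-Seq, which counts 3′ ends, with 2 libraries in each group: WT cells from pure (A01 and A05) and mixed cultures (A02 and A06), and cancer cells from pure (A03 and A07) and mixed cultures (A04 and A08). Values for a group are given in this library order throughout. The labels do not say whether the 2 libraries of a group came from separate cultures, so every p-value measures only the spread between these libraries, which may be technical.

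The respiratory chain passes electrons from NADH (complex I) and succinate (complex II) through complex III to oxygen at complex IV, and complex V uses the resulting proton gradient to make ATP. Complexes I, III, IV and V are assembled from 2 genomes: a few hydrophobic core subunits are translated inside the organelle from polycistronic chrM transcripts, and the other subunits are imported. Complex II is wholly nuclear. In the intestinal epithelium, crypt stem cells and absorptive enterocytes both depend on mitochondrial respiration, and the balance between respiration and glycolysis differs along the crypt-villus axis.

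Most chrM mRNAs carry little untranslated sequence, so that the poly(A) tail on which CEL-Seq primes lies at or near the stop codon. Where genes share an mRNA, as mtAtp8 and mtAtp6 do, this holds only for the last of them. In the GRCm38 annotation, 10 of the 13 chrM coding genes end in a whole stop codon and 3 end in a lone T, which the poly(A) tail completes to a stop. The last 30 bases of 4 of these genes are shown because the comparisons below turn on them, with the stop letters in capitals. The genes are mtCytb (chrM:14145-15288, + strand), the only chrM subunit of complex III; mtCo3 (chrM:8607-9390, + strand) and mtCo1 (chrM:5328-6872, + strand), both core subunits of complex IV; and mtNd4 (chrM:10167-11544, + strand), a core subunit of complex I.
mtCytb: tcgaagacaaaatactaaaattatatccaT
mtCo3: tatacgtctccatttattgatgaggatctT
mtCo1: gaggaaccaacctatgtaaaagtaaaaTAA
mtNd4: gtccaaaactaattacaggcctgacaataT

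Whether a read could be placed matters for these genes, since reads that fitted several places equally well had been discarded. Of all 50-base windows in the last 500 bases of each transcript, all of those of mtCo2, 99.8% of mtCo3, 99.3% of mtAtp6, 98.8% of mtNd4l, 98.0% of mtNd3 and 95.3% of mtCo1 recurred exactly in other GENCODE transcripts, against 17.7% for mtNd2 and 12.6% for mtNd5. No window of mtCytb, mtNd1, mtNd4, mtAtp8 or mtNd6 recurred. The windows were shared with 13 nuclear copies or predicted genes, none of which had a row in the count table. The search used GENCODE, whereas the reads had been aligned to the RefSeq transcriptome, so whether reads were lost was not tested. Values of the first 6 genes may therefore be uncertain in level. Of these, mtCo1, mtCo2, mtCo3 and mtAtp6 had the highest levels among the chrM coding genes (given below). Among the nuclear members, 24 of the 84 that could be matched shared a window with another gene, and 1 (Ndufs3, 53.9%) shared more than 50% of them. Neighbouring chrM genes also overlap: mtAtp8 and mtAtp6 by 43 bases, mtNd4l and mtNd4 by 7 bases, mtAtp6 and mtCo3 by 1 base, and mtNd5 and the opposite-strand mtNd6 by 14 bases.

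The promoters of 2 nuclear members are printed from RefSeq (GRCm38.p6; 250 bases before to 50 after the start) because these genes showed the largest log2 fold changes of the nuclear subunits of complexes II and I between cancer and WT cells. Sdhb (chr4:140961021-140961320, + strand) encodes the iron-sulfur subunit of complex II, and Ndufb2 (chr6:39592315-39592614, + strand) an accessory subunit of complex I. Capitals mark the letters GCATGCGC, the core of the NRF1 element.
Sdhb: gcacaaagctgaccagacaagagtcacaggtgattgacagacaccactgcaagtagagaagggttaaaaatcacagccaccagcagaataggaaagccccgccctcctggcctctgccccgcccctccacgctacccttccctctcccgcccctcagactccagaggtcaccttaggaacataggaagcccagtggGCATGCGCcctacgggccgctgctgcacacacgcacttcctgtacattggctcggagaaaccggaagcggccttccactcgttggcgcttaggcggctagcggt
Ndufb2: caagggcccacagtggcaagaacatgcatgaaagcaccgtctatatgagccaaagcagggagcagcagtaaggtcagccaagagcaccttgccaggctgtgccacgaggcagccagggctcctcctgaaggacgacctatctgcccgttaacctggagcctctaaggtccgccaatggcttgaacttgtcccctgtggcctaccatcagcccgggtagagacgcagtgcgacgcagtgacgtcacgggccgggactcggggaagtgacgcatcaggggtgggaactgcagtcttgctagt
A promoter window was found for 72 of the 85 nuclear members. On either strand, GCATGCGC (NRF1) lay in 12 of them (16.7%), against 3.05% of 27025 genes. AAGATGGCG (YY1) lay in 8 (11.1%, all genes 1.64%), CCGGAAGT (ETS) in 5 (6.94%, all genes 4.31%) and TCAAGGTCA (ERR) in 2 (2.78%, all genes 0.466%). The Sdhb window holds 1 NRF1 match, which starts 54 bases before the start of transcription, and none of the 4 words lies in the Ndufb2 window. These are matches of letters and not measured binding sites, and the 4 words do not overlap in their letters.

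Library depth differed widely, from 73109 reads in A02 to 4733121 in A04, so that 3 reads corresponded to 39.3 normalized counts (CPM, reads scaled to a common library size) in A02 and to 0.587 in A04. The deleted and mutated genes could not check the labels, since 3′ tags do not read the altered exons. Of the cell type markers, summed epithelial levels were 5676 to 15544 CPM in WT and 4545 to 6193 in cancer libraries (9 of 9 genes with a row), and the few fibroblast and immune genes with a row (1 of 6 and 2 of 6) summed to at most 2.27 CPM in any library. No endothelial or muscle gene of the lists had a row. Enterocyte markers (11 of 12 with a row) summed to 1611 to 1948 CPM in WT and 0 to 15.7 in cancer libraries, where Mep1a, Sis and Slc5a1 were at 0. Secretory markers (8 of 8) summed to 2543 to 4325 and 458 to 1128 CPM, and stem and transit-amplifying markers (8 of 8) to 326 to 1024 and 323 to 724. Enterocyte and secretory markers thus moved with genotype in every cancer and WT comparison below, and their part in them was not tested. A lower level in sorted bulk RNA also cannot be told apart from fewer cells of a type that expresses the gene.

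Transcripts of chrM took between 2.86% and 10.6% of all reads. The share was 4.65% and 6.18% in pure and 10.6% and 6.09% in mixed WT cells, and 6.82% and 2.86% in pure and 4.32% and 2.95% in mixed cancer cells. The highest value came from the shallowest library, A02, at 10.6% (Wilson 95% interval 10.4 to 10.8%), and the lowest from the pure cancer library A07, at 2.86% (Wilson 95% interval 2.80 to 2.92%), intervals that cover counting error only. The spread within the pure cancer group, 6.82% against 2.86%, was wider than the distance between the means of any pair of groups except mixed WT and mixed cancer, and the range of pure cancer overlapped with those of all other groups. Both mixed cancer libraries lay below all 4 WT libraries. Nuclear members together took 4.98% and 4.29% in pure and 4.52% and 3.49% in mixed WT cells, and 4.06% and 2.92% in pure and 3.32% and 3.08% in mixed cancer cells. All 4 cancer libraries lay below the pure WT libraries on this measure, and A03 lay above the mixed WT library A06. The plot of read shares by library sets the chrM and nuclear sums side by side.

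**Figure D1:**
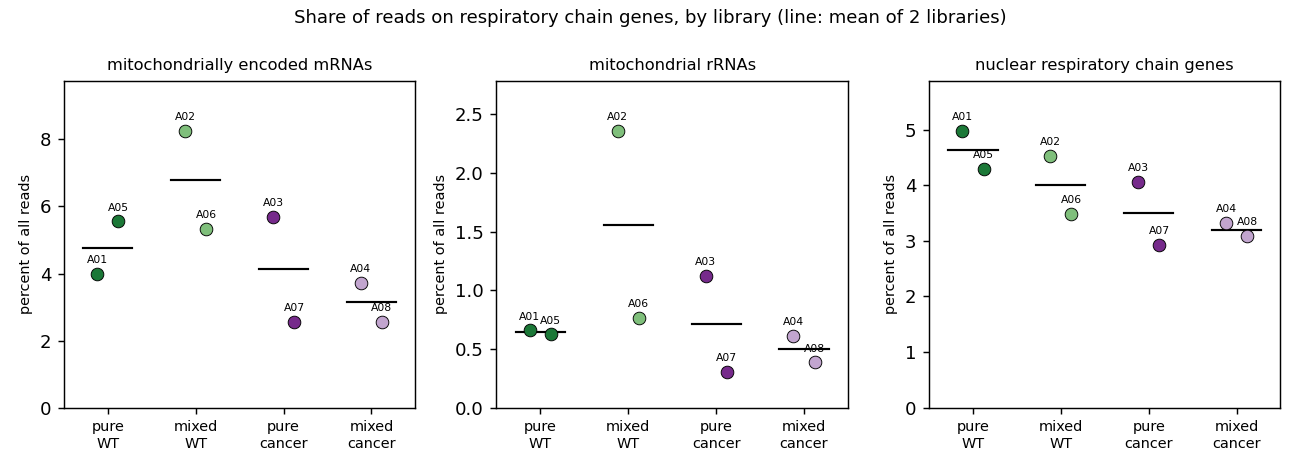
Percent of all reads (vertical axes) on groups of respiratory chain genes in each of the 8 libraries, with points for libraries and lines for the mean of the 2 libraries of a group. Library A02 is highest for the mitochondrially encoded mRNAs (8.25%) and rRNAs, and on the mRNAs the pure cancer libraries A03 and A07 are far apart (5.69% and 2.55%).

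Divided by complex, the nuclear reads of complexes II and IV separated the genotypes. Complex II, the succinate dehydrogenase that also belongs to the citric acid cycle, took 0.0946% and 0.0861% in pure and 0.123% and 0.0800% in mixed WT cells, and 0.0614% and 0.0545% in pure and 0.0663% and 0.0597% in mixed cancer cells. Complex IV, cytochrome c oxidase, took 1.01% and 0.836% in pure and 0.975% and 0.827% in mixed WT cells, and 0.789% and 0.638% in pure and 0.676% and 0.716% in mixed cancer cells. On both sums every cancer library lay below every WT library, with a narrow gap for complex IV. The ranges overlapped for complex I (1.45% and 1.21% in pure and 1.36% and 1.03% in mixed WT cells, and 1.44% and 0.886% in pure and 1.08% and 0.914% in mixed cancer cells) and complex III (0.596% and 0.473% in pure and 0.677% and 0.373% in mixed WT cells, and 0.446% and 0.279% in pure and 0.334% and 0.298% in mixed cancer cells). For complex V, ATP synthase, the sums were 1.76% and 1.62% in pure and 1.32% and 1.11% in mixed WT cells, and 1.28% and 1.01% in pure and 1.13% and 1.05% in mixed cancer cells, and both pure WT libraries stood above all others.

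To compare both genomes without any library scaling, reads on chrM protein-coding genes were divided by reads on the nuclear members of the same library, and the ratio was taken as log2. It was -0.32 and 0.37 in pure and 0.87 and 0.61 in mixed WT cells, and 0.49 and -0.20 in pure and 0.16 and -0.27 in mixed cancer cells. Both mixed WT libraries lay above the other 6. Group means were 0.74 ± 0.18 (SD, n = 2) for mixed and 0.03 ± 0.49 for pure WT cells, and -0.05 ± 0.30 for mixed and 0.14 ± 0.48 for pure cancer cells. The gap between the lower mixed WT library and the higher pure cancer library (A06 and A03) was smaller than the SD within the pure groups. By the authors' transcript estimates both mixed WT libraries were also the highest, whereas by barcode counts A06 lay below A03, A07 and A08. This is a ratio of read sums and not of molecules per gene.

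Within single complexes the order of libraries was not the same. For complex IV the log2 ratio was 0.81 and 1.66 in pure and 2.19 and 1.94 in mixed WT cells, and 1.88 and 1.25 in pure and 1.40 and 1.22 in mixed cancer cells, again highest in both mixed WT libraries. For complex V it was -1.17 and -0.84 in pure and 0.29 and -0.53 in mixed WT cells, and -0.01 and -1.12 in pure and -0.42 and -1.58 in mixed cancer cells, and A06 lay below 2 of the cancer libraries. For complex I it was -0.32 and 0.16 in pure and 0.43 and -0.01 in mixed WT cells, and -0.23 and -1.01 in pure and -0.28 and -1.08 in mixed cancer cells, where A07 and A08 were lowest and A01 lay within the cancer range. For complex III, whose single chrM gene is mtCytb, it was -1.08 and 0.46 in pure and -0.97 and -0.08 in mixed WT cells, and -0.59 and -1.10 in pure and -0.80 and -1.35 in mixed cancer cells, with A05 highest and A06 next. From pure to mixed WT cells the group mean went from 1.23 to 2.07 for complex IV, from -1.01 to -0.12 for complex V, from -0.08 to 0.21 for complex I and from -0.31 to -0.53 for complex III.

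**Figure D2:**
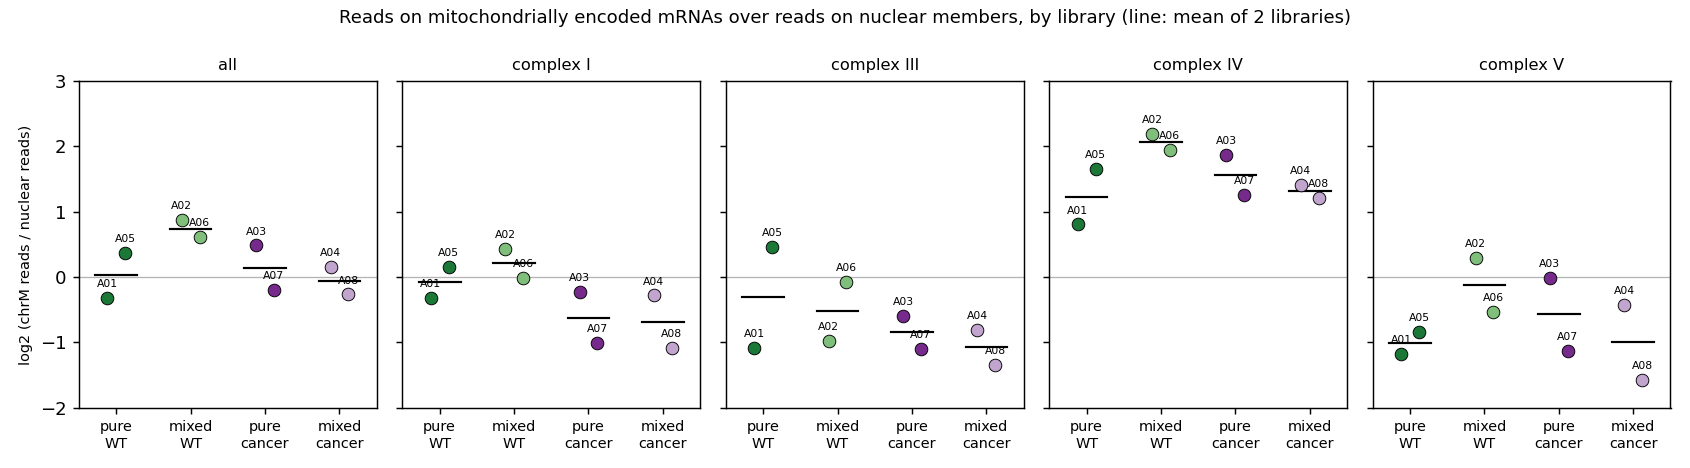
Log2 of reads on chrM protein-coding genes over reads on nuclear members (vertical axis), over all complexes and within complexes I, III, IV and V, with points for libraries and lines for the mean of 2 libraries. For all complexes the mixed WT libraries A02 and A06 sit at 0.87 and 0.61, above the other 6 libraries.

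Cancer and WT cells were compared first as averages over pure and mixed cultures, the contrast with the most libraries behind it (4 on each side). Of the 12 tested chrM protein-coding genes 11 had a log2 fold change below 0 in cancer cells, with a median of -0.78, and of the 81 tested nuclear members 74 did, with a median of -0.43. Over all 5264 tested genes 2506 were below 0 and the median was 0.04. Few single genes passed the test: by edgeR's quasi-likelihood test, with Benjamini-Hochberg adjustment over all tested genes, 4 of the 95 members fell in cancer cells and none rose. Among all tested genes 14.2% changed in this comparison, and 7.37% fell, so calls were no more frequent among the respiratory chain genes than elsewhere. An unadjusted p under 0.05 was found for 22 members. The 4 were Ndufaf6, Ndufb2, mtCytb and mtCo3, and DESeq2 called the same 4.

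The averaged medians depended on single libraries. The chrM median was -1.17 without A03, -1.10 without A04 and -0.53 without A07, and the nuclear median was -0.60, -0.54 and -0.33 in the same order. The pure cancer library A03 carried more chrM reads than its partner A07 for 12 of 12 chrM coding genes (median log2 difference 1.50). The mixed cancer library A04 stood above A08 for 11 of 12 chrM coding genes (median 0.85). In the WT groups the median differences between partners were smaller, -0.43 for A01 over A05 and 0.24 for A02 over A06. Between partners, nuclear members had median absolute log2 differences of 0.272, 0.437, 0.678 and 0.340 for A01 and A05, A02 and A06, A03 and A07, and A04 and A08, smaller than those of the chrM coding genes except for A02 and A06 (0.288 for the chrM genes).

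**Figure D3:**
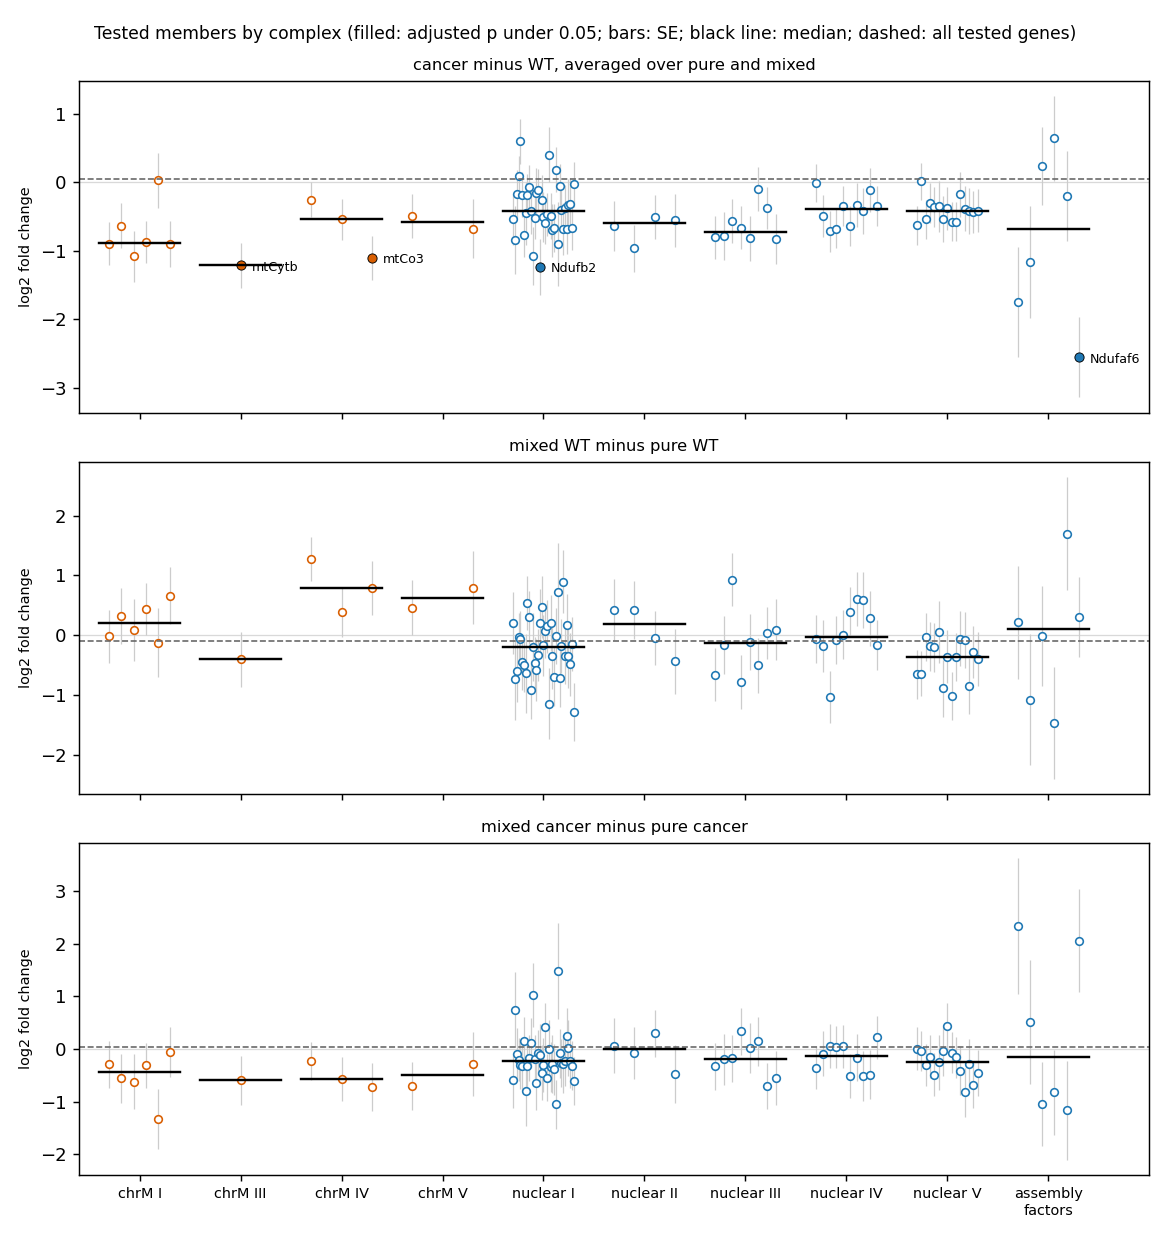
Log2 fold change (vertical axes) of the tested chrM coding genes, nuclear subunits and assembly factors, grouped by complex and by genome along the horizontal axis. The panels show cancer against WT averaged over cultures, mixed against pure WT, and mixed against pure cancer. The rRNAs, Cox7a2l, Atp5s and Atp5sl are not drawn. Bars show the SE, black lines the median of a group, dashed lines the median of all 5264 tested genes, and filled points an adjusted p under 0.05. In the comparison averaged over pure and mixed cultures most points lie below the dashed line, and 4 are filled.

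Of the chrM genes, mtCytb, the catalytic cytochrome b of complex III, stood at 2842 and 6977 CPM in pure and 3303 and 4128 in mixed WT cells, and 3254 and 1305 in pure and 1775 and 1219 in mixed cancer cells. The pure WT library A05 was highest and the groups overlapped, since A03 lay above A01. Averaged over cultures it was 2.31-fold lower in cancer cells (log2 fold change -1.21, SE 0.33, adjusted p = 0.0123). Without A05 the log2 fold change was -0.75 and the adjusted p 0.151.

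The complex IV core subunit mtCo3 stood at 6183 and 8614 CPM in pure and 14839 and 10845 in mixed WT cells, and 9242 and 2457 in pure and 3615 and 3465 in mixed cancer cells. Its levels were highest in mixed WT cells and lowest in A07, A08 and A04, while A03 reached the WT range. It fell 2.14-fold in the averaged comparison (log2 fold change -1.10, SE 0.32, adjusted p = 0.0205), and kept its call whichever single library was left out. On both other deposited tables the calls of mtCo3 and mtCytb were lost. By transcript estimates their log2 fold changes were -0.99 (adjusted p = 0.261) and -0.92 (adjusted p = 0.151), and by barcode counts 0.09 (adjusted p = 0.978) and -0.30 (adjusted p = 0.887), whereas Ndufaf6 and Ndufb2 were called on both. The authors' 4-base barcodes allow at most 256 different values, and between 0 and 9 of the chrM coding genes per library had 250 or more, so barcode counts compress the most abundant genes.

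The other complex IV core subunits did not pass the test. For mtCo1, which holds the oxygen-binding site, the levels were 4798 and 7205 CPM in pure and 14839 and 14089 in mixed WT cells, and 9190.0 and 7734 in pure and 6083 and 8357 in mixed cancer cells (log2 fold change -0.25, SE 0.26, adjusted p = 0.611). Both mixed WT libraries were far above the others, among which WT and cancer cells overlapped. For mtCo2, the docking site of cytochrome c, the levels were 6842 and 12415 CPM in pure and 13095 and 12164 in mixed WT cells, and 13483 and 4986 in pure and 6868 and 5545 in mixed cancer cells (log2 fold change -0.54, SE 0.30, adjusted p = 0.281). Here the pure cancer library A03 was the highest of all 8.

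Of the complex I core subunits in chrM, mtNd3 (log2 fold change -1.08, SE 0.37, adjusted p = 0.0530), mtNd4 (log2 fold change -0.88, SE 0.31, adjusted p = 0.0605), mtNd1 (log2 fold change -0.90, SE 0.32, adjusted p = 0.0618) and mtNd5 (log2 fold change -0.90, SE 0.34, adjusted p = 0.0817) missed the threshold with values of similar size. The levels of mtNd4 were 1048 and 1647 CPM in pure and 1966 and 1692 in mixed WT cells, and 1097 and 811 in pure and 1039 and 477 in mixed cancer cells. Those of mtNd3 were 4185 and 5433 CPM in pure and 6672 and 3598 in mixed WT cells, and 4939 and 892 in pure and 2174 and 1592 in mixed cancer cells, with the pure cancer library A07 lowest and its partner A03 within the WT range. For mtNd1 the levels were 3594 and 4246 CPM in pure and 4719 and 3069.8 in mixed WT cells, and 3327 and 1319.9 in pure and 2508 and 1261 in mixed cancer cells. In each of these 3 genes A07 and A08 were the lowest libraries.

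mtNd5 stood at 437 and 612 CPM in pure and 878 and 788 in mixed WT cells, and 499 and 230.5 in pure and 449.7 and 233 in mixed cancer cells, and mtNd2 at 2208 and 2362 CPM in pure and 3107 and 2603 in mixed WT cells, and 2997 and 1006 in pure and 1864 and 830.0 in mixed cancer cells (log2 fold change -0.63, adjusted p = 0.247). mtNd4l, at 218 and 240.0 CPM in pure and 209.7 and 211 in mixed WT cells, and 593 and 126 in pure and 174 and 98.6 in mixed cancer cells, was the single tested chrM coding gene above 0 (log2 fold change 0.02, adjusted p = 0.985), with A03 highest. The light-strand gene mtNd6 was not tested. Its levels were 12.8 and 7.87 CPM in pure and 0 and 11.3 in mixed WT cells, and 21.0 and 0 in pure and 14.3 and 5.19 in mixed cancer cells, and the 0 in A02 and A07 allows up to 39.3 and 8.98 CPM.

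The membrane subunits of ATP synthase encoded in chrM, mtAtp6 and mtAtp8, share a bicistronic mRNA. mtAtp6 stood at 7647 and 9519 CPM in pure and 14930.4 and 8790.3 in mixed WT cells, and 13756 and 4582 in pure and 7628 and 3569 in mixed cancer cells (log2 fold change -0.49, SE 0.32, adjusted p = 0.387), and mtAtp8 at 218 and 196 CPM in pure and 537 and 215 in mixed WT cells, and 325 and 62.9 in pure and 194 and 104 in mixed cancer cells (log2 fold change -0.68, SE 0.43, adjusted p = 0.369). Both were highest in A02 and A03, and WT and cancer libraries overlapped. The 12S and 16S rRNAs of the mitochondrial ribosome were read as well, although CEL-Seq primes on poly(A). mt-Rnr1 stood at 1592 and 2107 CPM in pure and 6148 and 2689 in mixed WT cells, and 3202 and 1188 in pure and 1343 and 1795 in mixed cancer cells (log2 fold change -0.62, SE 0.33, adjusted p = 0.252). mt-Rnr2 stood at 5055 and 4579.7 CPM in pure and 16438 and 6201 in mixed WT cells, and 9206 and 1874 in pure and 4308 and 2236 in mixed cancer cells (log2 fold change -0.79, SE 0.38, adjusted p = 0.196). The 18 tRNAs together took 0.000599% to 0.00684% of reads, too few for a test.

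**Figure D4:**
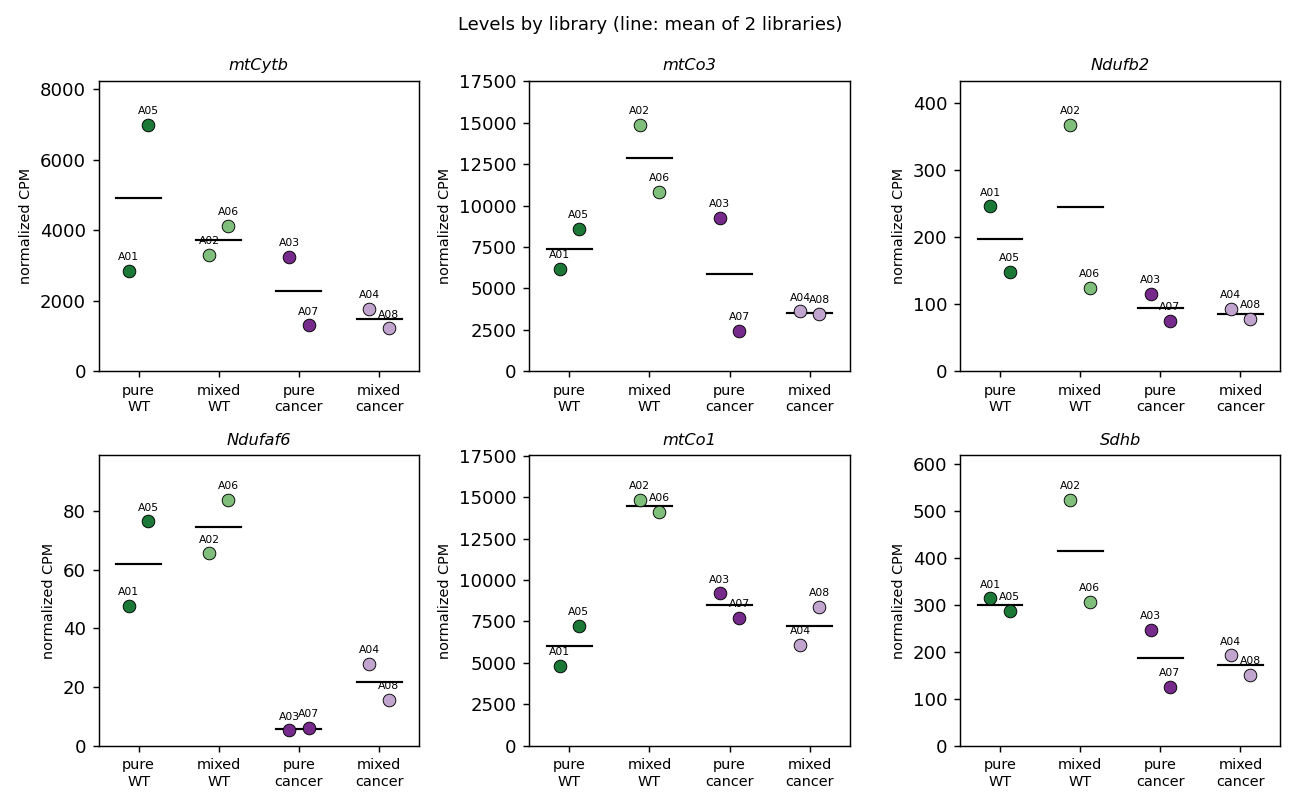
Normalized CPM (vertical axes, linear, from 0) of mtCytb, mtCo3, Ndufb2, Ndufaf6, mtCo1 and Sdhb in each of the 8 libraries, with points for libraries and lines for the mean of 2 libraries. Ndufaf6 lies at 5.25 to 28.0 CPM in the 4 cancer libraries and at 47.6 to 83.8 in the 4 WT libraries, while the chrM genes overlap between genotypes.

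Among nuclear members, levels below every WT library in all 4 cancer libraries were found for 16 of 81 (8.11% of all tested genes), and for 0 of the 12 chrM coding genes. The WT side includes A02, where 3 reads stand for 39.3 CPM, and the effect of this depth on the share over all genes was not tested. By complex these were 5 of 35 in complex I (Ndufa3, Ndufa9, Ndufb2, Ndufs7 and Ndufv2), 3 of 4 in complex II (Sdha, Sdhb and Sdhc), 2 of 8 in complex III (Uqcr10 and Uqcrc2), 3 of 10 in complex IV (Cox5a, Cox6a1 and Cox6b1), 2 of 15 in complex V (Atp5a1 and Atp5c1), and the assembly factor Ndufaf6. No member lay above every WT library in all 4 cancer libraries. Of these 16, Ndufaf6 and Ndufb2 passed the test.

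Complex I, NADH dehydrogenase, is the entry point for NADH. Its 7 nuclear core subunits, which carry the flavin and the iron-sulfur clusters, were all below 0 in cancer cells (median log2 fold change -0.40), and 24 of 28 accessory subunits were, with a median of -0.43. Of these 35 genes 1 passed the test. Ndufb2 stood at 246 and 149 CPM in pure and 367 and 125 in mixed WT cells, and 115 and 74.8 in pure and 92.9 and 77.8 in mixed cancer cells. All cancer libraries lay below all WT libraries, with A02 highest. It fell 2.35-fold (log2 fold change -1.23, SE 0.41, adjusted p = 0.0443), a call that was lost without A01, A02, A04, A05, A07 or A08, with adjusted p between 0.0544 and 0.193, and with no filter on counts (adjusted p = 0.0517).

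Ndufa9, an accessory subunit at the junction of the complex I arms, stood at 119 and 153 CPM in pure and 157 and 95.2 in mixed WT cells, and 31.5 and 50.9 in pure and 81.0 and 93.4 in mixed cancer cells (log2 fold change -1.08, SE 0.42, adjusted p = 0.0970). Ndufa3, an accessory subunit of the membrane arm, stood at 413 and 469 CPM in pure and 249 and 362 in mixed WT cells, and 215 and 198 in pure and 233 and 223 in mixed cancer cells (log2 fold change -0.78, SE 0.32, adjusted p = 0.122). Neither overlapped between genotypes. At the other end were Ndufa13 (log2 fold change 0.59, adjusted p = 0.285) and Ndufb7 (0.40, adjusted p = 0.607), with values above 0 that missed the threshold. Ndufc2, the accessory subunit with the highest mean CPM, stood at 1255 and 1230.3 CPM in pure and 1232 and 1230.2 in mixed WT cells, and 3133 and 913 in pure and 1113 and 830.0 in mixed cancer cells. The single library A03 was far above the other 7, which lay between 830.0 and 1255 CPM (log2 fold change 0.18, SE 0.33, adjusted p = 0.795).

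Ndufaf6, a factor needed to build complex I and not part of it, showed the largest difference of all members. It stood at 47.6 and 76.4 CPM in pure and 65.5 and 83.8 in mixed WT cells, and 5.25 and 5.99 in pure and 28.0 and 15.6 in mixed cancer cells. Every cancer library lay below every WT library, and pure cancer cells were lowest, although with only 3 reads over both pure cancer libraries against 188 in pure WT. The ratio of these reads, scaled to library size, was 0.0874 (exact 95% counting interval 0.0179 to 0.259). Averaged over cultures Ndufaf6 fell in cancer cells (log2 fold change -2.55, SE 0.59, adjusted p = 0.00307), a call kept whichever single library was left out. The gene lies at chr4:11051045-11076205 (GRCm38, GENCODE). Of the other tested assembly factors, Ndufaf1 (-1.74, adjusted p = 0.176) and Ndufaf2 (-1.16, adjusted p = 0.430) were below 0, and Ndufaf4 (0.64, adjusted p = 0.595) and Ndufaf3 (0.24, adjusted p = 0.856) above 0. None of these 4 passed the test.

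All 4 genes of complex II were below 0, with a median log2 fold change of -0.60, and none passed the test. Sdhb, whose promoter is shown above, stood at 314 and 288 CPM in pure and 524 and 306 in mixed WT cells, and 247 and 126 in pure and 193 and 150.4 in mixed cancer cells (log2 fold change -0.96, SE 0.35, adjusted p = 0.0677). Sdha, the flavoprotein, stood at 122 and 177 CPM in pure and 170.4 and 224 in mixed WT cells, and 121 and 98.8 in pure and 109.8 and 119 in mixed cancer cells (log2 fold change -0.64, SE 0.36, adjusted p = 0.299). In both genes the 4 cancer libraries lay below the 4 WT libraries.

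The membrane anchors of complex II showed the same order at smaller size. Sdhc stood at 337 and 314 CPM in pure and 328 and 306 in mixed WT cells, and 199 and 207 in pure and 240.1 and 259 in mixed cancer cells (log2 fold change -0.51, SE 0.32, adjusted p = 0.351), without overlap. Sdhd stood at 183 and 143 CPM in pure and 157 and 97.4 in mixed WT cells, and 110.2 and 114 in pure and 71.8 and 93.4 in mixed cancer cells (log2 fold change -0.56, SE 0.38, adjusted p = 0.413), where A06 fell within the cancer range. With chrM rows left out of the scaling, Sdhb joined the members called lower in the averaged comparison.

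Complex III hands electrons from ubiquinol to cytochrome c. All 8 of its nuclear subunits named by the rule were below 0, with a median of -0.72. An unadjusted p under 0.05 was found for 5 of them. None passed after adjustment. Uqcrq, the subunit with the highest mean CPM, stood at 2419 and 1758 CPM in pure and 3343 and 1160.0 in mixed WT cells, and 2246 and 712 in pure and 1239 and 757 in mixed cancer cells (log2 fold change -0.83, SE 0.36, adjusted p = 0.152), with A03 and A04 inside the WT range. Uqcrc2, a core subunit, stood at 292 and 382 CPM in pure and 249 and 362 in mixed WT cells, and 147 and 215 in pure and 167 and 207 in mixed cancer cells (log2 fold change -0.82, SE 0.33, adjusted p = 0.116), and Uqcr10, a small accessory subunit, at 697 and 492 CPM in pure and 419 and 344 in mixed WT cells, and 336 and 275 in pure and 246 and 239 in mixed cancer cells (log2 fold change -0.80, SE 0.31, adjusted p = 0.0998). Neither overlapped between genotypes. The Rieske protein Uqcrfs1 was nearest to 0 (log2 fold change -0.10, adjusted p = 0.895).

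The 10 tested nuclear subunits of complex IV, which surround the chrM core, were all below 0 with a median of -0.39, and none passed the test. Cox8a, with the highest mean CPM, stood at 2546 and 1434 CPM in pure and 1442 and 2100.2 in mixed WT cells, and 1286 and 1446 in pure and 1306 and 1883 in mixed cancer cells (log2 fold change -0.35, SE 0.29, adjusted p = 0.519), and WT and cancer libraries overlapped. Cox5b, which binds zinc, stood at 1094 and 1038 CPM in pure and 589.9 and 464 in mixed WT cells, and 541 and 356 in pure and 459 and 467 in mixed cancer cells (log2 fold change -0.71, SE 0.30, adjusted p = 0.131). Both pure WT libraries were the highest for Cox5b, and mixed WT overlapped with cancer cells. At the other end Cox4i1, a subunit that binds ATP, was nearest to 0 (log2 fold change -0.02, adjusted p = 0.985).

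Complex V had 14 of 15 nuclear subunits below 0 and a median of -0.41, with none past the test. Atp5h, the stalk subunit d and the member with the highest mean CPM, stood at 2493 and 2507 CPM in pure and 2307 and 1611 in mixed WT cells, and 1937 and 1200.2 in pure and 1227 and 1577 in mixed cancer cells (log2 fold change -0.58, SE 0.28, adjusted p = 0.208). Atp5a1, the alpha subunit of the catalytic head, stood at 1292 and 1308 CPM in pure and 799.6 and 854 in mixed WT cells, and 751 and 593 in pure and 767 and 571 in mixed cancer cells (log2 fold change -0.63, SE 0.29, adjusted p = 0.172), without overlap between genotypes. Its partner Atp5b, the beta subunit, had a log2 fold change of 0.01 (adjusted p = 0.990). The difference between these partners was not tested.

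Several subunits have tissue-specific or duplicated copies. The c-ring of ATP synthase is encoded by 3 genes with one mature protein, and all 3 were read: Atp5g1 at 799 and 598 CPM in pure and 446 and 324 in mixed WT cells, and 493 and 233 in pure and 406 and 285 in mixed cancer cells, Atp5g2 at 1569.6 and 1407 CPM in pure and 773 and 1525 in mixed WT cells, and 656 and 1080.5 in pure and 829 and 1530.3 in mixed cancer cells, and Atp5g3 at 2551 and 2843 CPM in pure and 1101 and 1547 in mixed WT cells, and 1590.3 and 1018 in pure and 1361 and 1115 in mixed cancer cells. Their log2 fold changes in cancer cells were -0.53, -0.38 and -0.58, with adjusted p of 0.351, 0.517 and 0.207. Pure WT libraries were the highest for Atp5g1 and Atp5g3, and A06 and A08 joined them for Atp5g2.

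For complex IV the widely expressed copies carried nearly all reads. Cox4i1 stood at 1403 and 1283 CPM in pure and 1363 and 1214 in mixed WT cells, and 1789.7 and 1155 in pure and 1064 and 1235 in mixed cancer cells. Cox6a1 stood at 1345 and 1364 CPM in pure and 1049 and 1507 in mixed WT cells, and 772 and 859 in pure and 764 and 903 in mixed cancer cells, whereas its muscle copy Cox6a2 had reads in A04 alone (1.17 CPM). Cox6b1 stood at 809.9 and 939.8 CPM in pure and 891 and 870.0 in mixed WT cells, and 798 and 566 in pure and 622 and 788 in mixed cancer cells, and the testis copy Cox6b2 at most at 3.66 CPM.

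Cox7a2 stood at 531 and 407 CPM in pure and 865 and 575 in mixed WT cells, and 640.3 and 338 in pure and 421 and 446 in mixed cancer cells, and the supercomplex factor Cox7a2l at 446 and 288 CPM in pure and 275 and 458 in mixed WT cells, and 268 and 368 in pure and 189.8 and 327 in mixed cancer cells, with log2 fold changes of -0.33 (adjusted p = 0.590) and -0.39 (adjusted p = 0.544). The muscle copy Cox7a1 had 22.0 CPM in A01, 26.2 in A02 and at most 5.67 in the other libraries, and was not tested. Cox4i2, Cox8b, Cox8c and Ndufa4l2 had no row in the read count table.

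Within the mixed cultures, where both cell types had shared well and medium, all 12 chrM coding genes were below 0 when cancer was compared with WT cells (median log2 fold change -1.15). Nuclear members had 69 of 81 below 0 and a median of -0.47, against a median of 0.12 over all tested genes. Both mixed cancer libraries lay below both mixed WT libraries for 12 of 12 chrM coding genes, both rRNAs and 46 of 81 nuclear members, against 18.4% of all tested genes. The median log2 difference of the shallow library A02 over A06 was -0.61 over all tested genes and 0.10 over nuclear members. How far the depth of A02 lowered the share of 18.4% was not tested. After adjustment 1 of 95 members fell, mtCo3 (log2 fold change -1.86, SE 0.46, adjusted p = 0.0132), where 6.42% of all genes changed and 4.41% fell. An unadjusted p under 0.05 was found for 19 members. Next to the threshold were mt-Rnr2 (log2 fold change -1.78, SE 0.55, adjusted p = 0.0540) and mt-Rnr1 (log2 fold change -1.49, SE 0.47, adjusted p = 0.0632), and DESeq2 called mt-Rnr2 as well. The call of mtCo3 remained whichever single library was left out, but was lost with the authors' transcript estimates (log2 fold change -2.43, adjusted p = 0.0655) and with barcode counts (-1.78, adjusted p = 0.649). By reads, the chrM median in this comparison was -1.12 without A07 and -0.96 without A02.

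Between pure cultures the chrM genes did not separate the genotypes. Of 12 chrM coding genes 9 were below 0 with a median of -0.27, and 1 (mtNd1) was lower in both pure cancer than in both pure WT libraries. Without A03 the median was -1.23, and without A07 it was 0.26. By transcript estimates it was 0.19, with 4 of 12 below 0, and by barcode counts 1.38. Its direction thus depended on which pure cancer library was kept and on the kind of count. The nuclear members had 66 of 81 below 0 and a median of -0.40 (all genes -0.05). Both pure cancer libraries lay below both pure WT libraries for 37 of 81, against 29.4% of all tested genes.

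One member passed the test between pure cultures, Ndufaf6 (log2 fold change -3.42, SE 0.92, adjusted p = 0.0164), while 9.95% of all tested genes changed and 4.84% fell. An unadjusted p under 0.05 was found for 11 members. This call was lost without A05 (adjusted p = 0.236), A07 (0.119) or A03 (0.0574). Without A03, 11 of 12 chrM coding genes and 78 of 83 nuclear members were below 0 (medians -1.23 and -0.74, all genes -0.17).

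The study's central comparison is that of WT cells taken from mixed and from pure cultures. No respiratory chain gene passed the test: 0 of 95 by edgeR's quasi-likelihood test with Benjamini-Hochberg adjustment, against 0.741% of all tested genes, with an unadjusted p under 0.05 for 7 members and 1 call by DESeq2 (mtCo1). The chrM coding genes had a median log2 fold change of 0.41, with 9 of 12 above 0, and the nuclear members one of -0.16, with 54 of 81 below 0, beside -0.10 over all tested genes. Both mixed WT libraries lay above both pure WT libraries for 5 of 12 chrM coding genes (mtCo1, mtCo3, mtNd2, mtNd4 and mtNd5), both rRNAs and 10 of 81 nuclear members, where 15.0% of all tested genes did. A02 enters this share as well, and the effect of its depth on it was not tested.

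The gene with the smallest p was mtCo1, whose levels are given above, at log2 fold change 1.27, SE 0.37, adjusted p = 0.129 and an unadjusted p of 0.00207. It was called by DESeq2, with a higher filter on counts and when only the 4 WT libraries were fitted, and the last of these fits also called mt-Rnr1 and mt-Rnr2. Beside it stood mt-Rnr2 (log2 fold change 1.23, SE 0.54, adjusted p = 0.440) and mt-Rnr1 (log2 fold change 1.25, SE 0.47, adjusted p = 0.321). mtCo1, mt-Rnr1 and mt-Rnr2 all had their highest level in A02, the library with 73109 reads, and mtCo1 was nearly as high in A06. Without A02 the median of the chrM coding genes was 0.08. Stem and transit-amplifying markers summed to 839 and 1024 CPM in pure and 498 and 326 in mixed WT cells, without overlap, and their part in the values of this comparison was not tested.

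Of the nuclear subunits, those furthest from 0 in this comparison missed the threshold: Ndufv3 (log2 fold change -1.28, SE 0.48, adjusted p = 0.321), Ndufb7 (log2 fold change -1.14, SE 0.59, adjusted p = 0.555), Cox5b (log2 fold change -1.03, SE 0.43, adjusted p = 0.391) and Atp5g3 (log2 fold change -1.02, SE 0.40, adjusted p = 0.360) below 0 and Uqcrb (log2 fold change 0.93, SE 0.44, adjusted p = 0.501) above it. The assembly factors ran from -1.46 for Ndufaf4 (SE 0.93) to 1.70 for Ndufaf5 (SE 0.94), also without a call. Per complex, the nuclear medians were -0.19 for complex I, 0.19 for complex II, -0.13 for complex III, -0.03 for complex IV and -0.35 for complex V, where 14 of 15 genes were below 0.

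For cancer cells the same comparison gave 0 calls among the 95 members and 0.0% of all tested genes by edgeR, with an unadjusted p under 0.05 for 3 members and no member called by DESeq2. All 12 chrM coding genes were below 0 in mixed cancer cells (median -0.56), as were 59 of 81 nuclear members (median -0.22, all genes 0.03). This rested on A03: without it the chrM median was 0.38 and 2 of 12 genes were below 0, and the nuclear median was 0.19.

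Whether mixing acted differently on the 2 cell types was tested as the difference of both changes. By edgeR's test 0 of 95 members were called (0.076% of all tested genes), 5 had an unadjusted p under 0.05, and DESeq2 called none. The median over the chrM coding genes was -0.92, with 12 of 12 below 0, which means a lower value of the change in cancer than in WT cells, and the nuclear median was 0.03 (all genes 0.17). Without A03 the chrM median was 0.13 with 4 of 12 below 0, and without A07 it was -1.39 with 12 of 12 below 0.

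Genes outside the chain were read from lists of neighbouring pathways. Of 17 tested genes of the citric acid cycle, which feeds NADH and succinate to complexes I and II, 3 fell in cancer cells averaged over cultures (all tested genes 7.37%), none rose, and the median log2 fold change was -0.29. Suclg1, the alpha subunit shared by both succinyl-CoA ligases, stood at 362 and 256 CPM in pure and 433 and 242 in mixed WT cells, and 89.2 and 114 in pure and 128 and 83.0 in mixed cancer cells. No cancer library reached the WT range (log2 fold change -1.58, SE 0.36, adjusted p = 0.00286). Mdh2, mitochondrial malate dehydrogenase, stood at 950.0 and 735 CPM in pure and 826 and 890.4 in mixed WT cells, and 388 and 275 in pure and 432 and 409.8 in mixed cancer cells, again without overlap (log2 fold change -1.19, SE 0.30, adjusted p = 0.00705). Suclg2, the subunit of the GTP-forming ligase, stood at 43.0 and 84.3 CPM in pure and 91.8 and 72.5 in mixed WT cells, and 5.25 and 12.0 in pure and 29.5 and 5.19 in mixed cancer cells (log2 fold change -2.31, SE 0.59, adjusted p = 0.00801), with 1 read in each of A03 and A08, and its call was lost without A05 (adjusted p = 0.0917). Suclg1 and Mdh2 also fell between pure cultures (adjusted p = 0.0484 and 0.0451), calls that were lost when any 1 of the 4 pure libraries was left out, with barcode counts and with no filter, for Mdh2 also with transcript counts and for Suclg1 with DESeq2, both other scalings of all rows and a minimum count of 50. Averaged over cultures, the call of Mdh2 was lost with barcode counts (adjusted p = 0.416).

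Of 11 tested genes of mitophagy and the hypoxia response, 4 rose in cancer cells and none fell, where 6.8% of all tested genes rose. Bnip3, a mitophagy receptor and target of hypoxia-inducible factor, stood at 79.6 and 86.0 CPM in pure and 236 and 161 in mixed WT cells, and 897 and 446 in pure and 645 and 420.2 in mixed cancer cells (log2 fold change 2.25, SE 0.35, adjusted p = 4.67e-05). Egln3, a prolyl hydroxylase induced by the same factor, stood at 223 and 70.8 CPM in pure and 380.1 and 607 in mixed WT cells, and 971 and 802 in pure and 1036 and 794 in mixed cancer cells (log2 fold change 1.73, SE 0.35, adjusted p = 9.70e-04). In both genes the pure WT libraries were lowest and the mixed WT libraries lay between them and the cancer libraries. Vegfa, an angiogenic factor, stood at 13.7 and 22.5 CPM in pure and 0 and 47.6 in mixed WT cells, and 131 and 138 in pure and 172 and 124 in mixed cancer cells (log2 fold change 2.51, SE 0.49, adjusted p = 6.80e-04), and Egln1, the main oxygen-sensing hydroxylase, at 46.7 and 59.0 CPM in pure and 65.5 and 52.1 in mixed WT cells, and 94.5 and 195 in pure and 219 and 129.7 in mixed cancer cells (log2 fold change 1.56, SE 0.42, adjusted p = 0.0106). Neither overlapped between genotypes, and the 0 of Vegfa in A02 allows up to 39.3 CPM. Between pure cultures Bnip3 (3.01, adjusted p = 2.10e-04), Egln3 (2.60, adjusted p = 0.00127) and Vegfa (2.87, adjusted p = 0.00645) rose, where 5.11% of all tested genes did. The call of Egln1 was lost without A01, A04 or A07 (adjusted p up to 0.104), and that of Vegfa between pure cultures without A01 (0.0913). With barcode counts the averaged call of Egln3 was lost (adjusted p = 0.175).

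**Figure D5:**
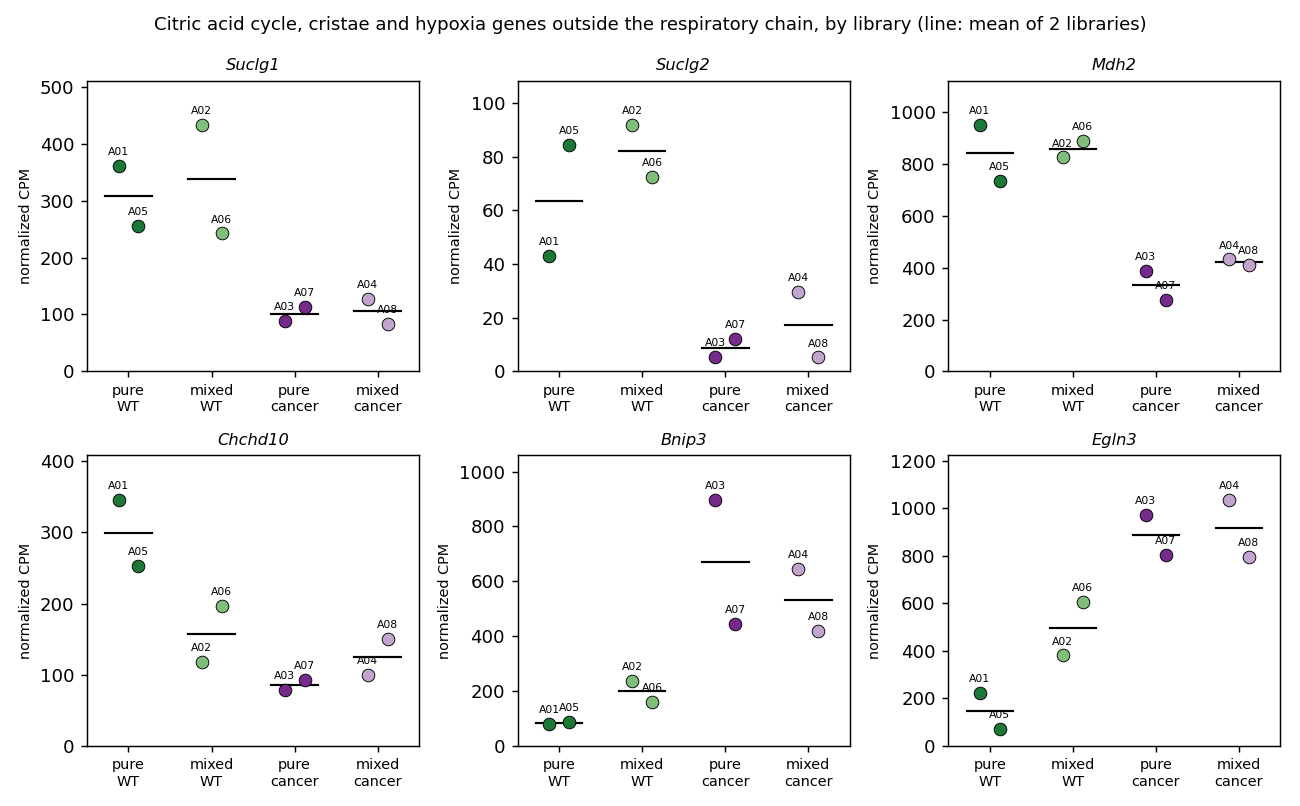
Normalized CPM (vertical axes, linear, from 0) of Suclg1, Suclg2, Mdh2, Chchd10, Bnip3 and Egln3 in each of the 8 libraries, with points for libraries and lines for the mean of 2 libraries. Suclg1 lies at 83.0 to 128 CPM in cancer and 242 to 433 in WT libraries, and Bnip3 at 420.2 to 897 and 79.6 to 236.

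Of 14 tested genes of the mobile electron carriers and ubiquinone synthesis, 1 fell in cancer cells averaged over cultures, beside 7.37% of all tested genes. This was Gpd2, the mitochondrial glycerol-3-phosphate dehydrogenase, at 18.3 and 20.2 CPM in pure and 144 and 38.5 in mixed WT cells, and 10.5 and 0 in pure and 15.7 and 10.4 in mixed cancer cells (log2 fold change -2.35, SE 0.78, adjusted p = 0.0456). With 2 reads over both pure cancer libraries, this call was lost without A01, A02, A04, A05 or A07 (adjusted p up to 0.167). Cytochrome c, encoded by Cycs, stood at 1354 and 859 CPM in pure and 3225 and 856 in mixed WT cells, and 2435 and 485 in pure and 1171 and 503 in mixed cancer cells (log2 fold change -0.43, adjusted p = 0.608). Its highest levels were in A02 and A03, the same libraries that were high for mtAtp6. Cyc1, read with this list, encodes cytochrome c1, a subunit of complex III whose name falls outside the rule. Its log2 fold change was -0.59 (adjusted p = 0.339).

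Of 20 tested assembly factors whose names fall outside the rule, 3 fell in cancer cells averaged over cultures and none rose, beside 7.37% of all tested genes that fell. Cox20, a chaperone of mtCo2, stood at 101 and 97.8 CPM in pure and 184 and 52.1 in mixed WT cells, and 42.0 and 26.9 in pure and 27.6 and 25.9 in mixed cancer cells (log2 fold change -1.74, SE 0.51, adjusted p = 0.0203). Cox19, a copper-handling factor of complex IV, stood at 44.8 and 59.0 CPM in pure and 39.3 and 54.4 in mixed WT cells, and 5.25 and 21.0 in pure and 12.1 and 15.6 in mixed cancer cells (log2 fold change -1.88, SE 0.60, adjusted p = 0.0371). Atpif1, the inhibitor of ATP synthase, stood at 672 and 609.8 CPM in pure and 721 and 958 in mixed WT cells, and 472 and 389 in pure and 282 and 394 in mixed cancer cells (log2 fold change -0.96, SE 0.30, adjusted p = 0.0341). In all 3 the cancer libraries lay below the WT libraries. Each of these calls was lost without some of the single libraries, with adjusted p of up to 0.0797, 0.250 and 0.119. That of Cox19 was also lost with DESeq2 (adjusted p = 0.0646), and that of Atpif1 with barcode counts (0.621) and with no filter (0.0548). Between pure cultures Cox15, of heme A synthesis, fell (adjusted p = 0.0236) on 3 reads in pure cancer against 211 in pure WT (ratio scaled to library size 0.0778, exact 95% counting interval 0.0159 to 0.231), and was lost without A05 or A07 (adjusted p = 0.436 and 0.103), with DESeq2 (0.0591), and with barcode (0.0554) and transcript counts (0.0804). In none of these lists did a gene pass the test in mixed against pure WT cells, in mixed against pure cancer cells or in the difference of both.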

How the data were processed

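Bulk RNA of sorted cells was measured in 8 libraries of 4 groups of 2. Per the study's methods and labels, the authors aligned read 2 to the mm10 RefSeq transcriptome with BWA, discarded reads that mapped equally well to several places, and deposited raw counts of reads per gene (featureCounts), counts of distinct 4-base barcodes, and transcript numbers estimated from the barcodes (expected counts, rounded here to whole numbers). The read counts were used in the main analysis and the others as alternatives. A deposited DESeq2 (1.22.2) table of mixed against pure WT, with the authors' means, fold changes and p-values, was not used.

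Normalized CPM and tests came from edgeR 4.0.16 (R 4.3.3): filterByExpr with a minimum count of 10, TMM factors, 1 quasi-likelihood fit with 4 group means over all 8 libraries, and Benjamini-Hochberg adjustment over 5264 tested genes with a threshold of 0.05. SE was derived from the log2 fold change and its F value (absolute change over root F). The study used DESeq2, which stands here as an alternative (1.42.0), beside other scalings, filters, tables and each library left out. The scripts were tested on simulated data. 2 entries that are no mouse genes (1 read in all) were left out. Intervals cover the counting error of reads only, and they are too narrow for molecules, since PCR copies are not independent. Positions are from GENCODE (GRCm38, the build of mm10) and promoters from RefSeq. Genes named in the text were every chrM coding gene, every member called in a comparison (at most 10 per direction), in each complex the nuclear member with the highest mean CPM and the member with the largest averaged log2 fold change, fixed isoform sets, and called genes of fixed pathway lists (at most 5) with Tfam, Ppargc1a, Cycs and Cyc1. Genes without overlap between genotypes and those at the ends of a complex or comparison were added after their values were seen. Members and lists were chosen with earlier results of these data known. Amino acid sequences were not used here. A further allele of the cancer organoids is not reported here.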

Additional observations from a re-analysis of the deposited data

How the results depend on the processing

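The number of members called was read under each alternative from the whole refit. In mixed against pure WT it was 1 with a minimum count of 50 or with DESeq2 and 3 with only the 4 libraries compared, and 0 to 2 when single libraries were left out. In pure cancer against pure WT it was 2 with barcode counts, with scaling without chrM rows or with only the 4 libraries compared (0 to 5 without single libraries). In mixed cancer against mixed WT it was 3 with median-of-ratios factors, upper-quartile factors or scaling without chrM rows, 4 with no filter, and 2 with a minimum count of 50, DESeq2 or only the 4 libraries compared (1 to 9). Averaged over cultures it was 2 with barcode counts, 7 with median-of-ratios factors and 8 with scaling without chrM rows (2 to 19), and for the difference of both changes on mixing 0 to 2 without single libraries. Mixed against pure cancer had 0 calls whichever single library was left out. The largest shifts of the median of all genes by another scaling were -0.11 (log2) for the difference of changes and 0.10 for mixed against pure WT, both with median-of-ratios factors.

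Barcode counts, which saturate, moved most medians. The averaged log2 fold change of mtCo3 became 0.094. The chrM median was 2.06 in mixed against pure WT, -3.25 for the difference of changes and 1.38 in pure cancer against pure WT. The nuclear medians were 0.45, -0.99 and 0.12 in the same comparisons, -0.56 in mixed against pure cancer and -0.85 in mixed cancer against mixed WT. With transcript counts the chrM median in pure cancer against pure WT also changed sign, to 0.19 with 4 of 12 genes below 0. Without single libraries the chrM median ran from -1.23 to 0.26 in pure cancer against pure WT, -1.05 to 0.38 in mixed against pure cancer and -1.39 to 0.13 for the difference. The nuclear median ran from -0.74 to -0.33, -0.40 to 0.19 and -0.0684 to 0.39 in the same order. The mean chrM share became 1.00% in pure WT, 3.66% in mixed WT and 1.26% in mixed cancer with barcode counts, and 3.90% and 2.34% in pure WT and mixed cancer with transcript counts. The mean log2 chrM to nuclear ratio was -2.33, -0.96, -1.28 and -1.91 with barcode counts, in the order of the report. With transcript counts it was -0.57 in pure WT, 0.44 in mixed WT and -0.96 in mixed cancer, and with all chrM rows 1.02 in mixed WT. In each of these tables mixed WT had the highest mean, but with barcode counts this rested on A02 (-0.32). There A06 (-1.60) lay below A03, A07 and A08. The cause of these shifts was not tested beyond the ceiling of the barcodes. No pairing or block was fitted, because the labels give the groups no shared replicate numbers and name no batch. A block of A01 to A04 and A05 to A08 could only have been inferred from the library order. Libraries of mixed WT and mixed cancer cells were treated as independent, although they may have come from the same cultures. With 2 libraries a group and 73109 reads in the shallowest, many differences of single genes could not be told from the spread between libraries. Counts were also simulated with the changed genes drawn from all tested genes, and recovery at the levels of the members was not read separately. In these counts edgeR's test called 2.69%, 30.6% and 67.8% of 2-, 4- and 8-fold changes in mixed against pure WT. In the averaged comparison it called 15.8%, 68.8% and 91.6%. A missing call therefore does not show that a gene was unchanged.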

Other observations

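Outside the chain, the mitochondrial ribosome, which translates the chrM mRNAs, had 75 tested genes. In cancer against WT cells averaged over cultures 53 of them were below 0, with a median log2 fold change of -0.28 and a range of -1.53 to 0.54. None passed edgeR's test, and 5 had an unadjusted p under 0.05. In mixed against pure WT cells 54 of 75 were below 0, with a median of -0.34 beside -0.10 over all tested genes. Of 34 tested genes of protein import and cristae, 1 fell in cancer cells averaged over cultures, beside 7.37% of all tested genes. This was Chchd10, a cristae-associated protein, which stood at 346 and 253 CPM in pure and 118 and 197 in mixed WT cells, and 78.7 and 92.8 in pure and 100.0 and 150.4 in mixed cancer cells (log2 fold change -1.12, SE 0.37, adjusted p = 0.0424). Its levels overlapped between genotypes, since A08 lay above A02. Its call was lost when any single library other than A02 was left out, with adjusted p between 0.0505 and 0.204, with DESeq2 (adjusted p = 0.0539), with barcode counts (0.0945) and with no filter (0.0716). Between pure cultures Chchd10 fell as well by edgeR's test (log2 fold change -1.79, SE 0.52, adjusted p = 0.0273), where 4.84% of all tested genes fell. That call was lost with barcode counts (adjusted p = 0.148) and when any 1 of the 4 pure libraries was left out. Of 7 tested genes that maintain and transcribe mitochondrial DNA none passed edgeR's test in cancer against WT cells averaged over cultures, and 1 had an unadjusted p under 0.05. Among them Tfam, which packages that DNA, stood at 33.9 and 65.8 CPM in pure and 52.4 and 43.0 in mixed WT cells, and 31.5 and 23.9 in pure and 32.5 and 25.9 in mixed cancer cells (log2 fold change -0.74, adjusted p = 0.442). None of 4 tested regulators of mitochondrial biogenesis passed it, 1 had an unadjusted p under 0.05, and the coactivator Ppargc1a was not tested.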
